A study of Rattus norvegicus with 6 samples.

Results

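This report covers 41 genes of the ATF4 pathway and of amino acid supply in rat mesenchymal stem cells (MSC), the plastic-adherent stromal cells of bone marrow. They were taken by symbol from a deposited table of read counts, and 40 of the 41 were found among its 30498 genes. Of those, 36 carried the listed symbol, 3 tRNA synthetases had their older symbols (Gars, Eprs and Cars), and Nupr1 stood under Nupr1l1, which RefSeq lists as its synonym. The level of Cebpg was not analysed here. The 6 libraries came from wild-type rats (Rattus norvegicus). The group rcMSC (3 libraries) was labelled as cells of the marrow of cranial bone, and the group rbMSC (3 libraries) as cells of femur and tibia marrow. Treatment, age, passage and strain are not named in the labels. Whether libraries of 1 group stem from different animals or cultures is not stated either, and the p-values therefore reflect the spread among these libraries alone, which may be technical. The comparison asks how the 2 kinds of MSC differ in gene expression, in a study on transplanting cranial MSC after spinal cord injury.

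ATF4 is a transcription factor whose mRNA is read by ribosomes mainly when the initiation factor eIF2 is phosphorylated, as happens when amino acids run short, when proteins misfold in the endoplasmic reticulum (ER) or when mitochondria are disturbed. This programme is called the integrated stress response. ATF4 then switches on genes that make, import and use amino acids, among them the enzymes of serine synthesis, the transporters of the plasma membrane and the cytosolic tRNA synthetases, which load amino acids onto tRNA. In bone-forming cells, ATF4 is known for its part in collagen synthesis, which draws on glycine and proline.

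The libraries held 21340290 to 26928079 counts each, and a single count corresponded to 0.0371 to 0.0469 CPM (counts scaled to a common library size) before TMM scaling. All levels in CPM below are with TMM scaling. Replicate 3 of rcMSC stood apart from its group: the chi-square per degree of freedom over genes was 42.8 and 42.0 against the other rcMSC libraries, while it was 2.69 to 3.16 for every other pair within a group. Counts are therefore also given without it, as are the values of genes whose call it changed. The MSC markers were present in both groups (12 of 12 tested, of which 5 were higher and 7 lower in rcMSC), while 8 lymphoid and erythroid markers summed to 0.0468 to 0.515 CPM per library, with 2 of the 8 at 0 in all libraries. The 16 monocyte and macrophage markers summed to 1040 to 1047 CPM in rbMSC and 607 to 619 CPM in rcMSC, with 11 lower, 0 higher and none at 0, and 14 proliferation markers summed to 401 to 406 and 217 to 219 CPM, with 12 lower and 0 higher. Neither range overlapped between the groups, and their part in the results below was not tested. In bulk samples, fewer cells of a type and less RNA per cell cannot be told apart.

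Most of the listed genes were higher in rcMSC. The list was chosen with earlier results of these data known. Of the 39 genes with enough counts to be tested, 34 were higher, 1 was lower (Nupr1) and 4 did not pass the threshold (Ddit4, Vldlr, Phgdh and Slc1a4), by edgeR's quasi-likelihood test with an adjusted p under 0.05 over all genes. Over all 14836 genes tested, 22.6% were higher and 23.2% lower. The median log2 fold change (rcMSC over rbMSC, as everywhere below) was 0.57 over the 39 genes and 0.015 over all genes. In 34 of the 39, the 3 rcMSC libraries all lay above the 3 rbMSC libraries, in 1 they all lay below, and in 4 the groups overlapped, where 28.3% and 28.8% of all genes lay above and below. Most differences were modest: 17 genes were called and at least 1.5-fold higher (10.7% of all genes were), and 6 were at least 2-fold higher (5.76% of all genes were), namely Stc2, Cth, Slc7a11, Trib3, Pycr1 and Psat1. None of the 39 was scarce in rbMSC, where the lowest mean was 3.95 CPM, for Psph. Cbs, which makes cystathionine from homocysteine and serine, had 1 count in rbMSC and 0 in rcMSC over all libraries and was not tested.

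**Figure D1:**
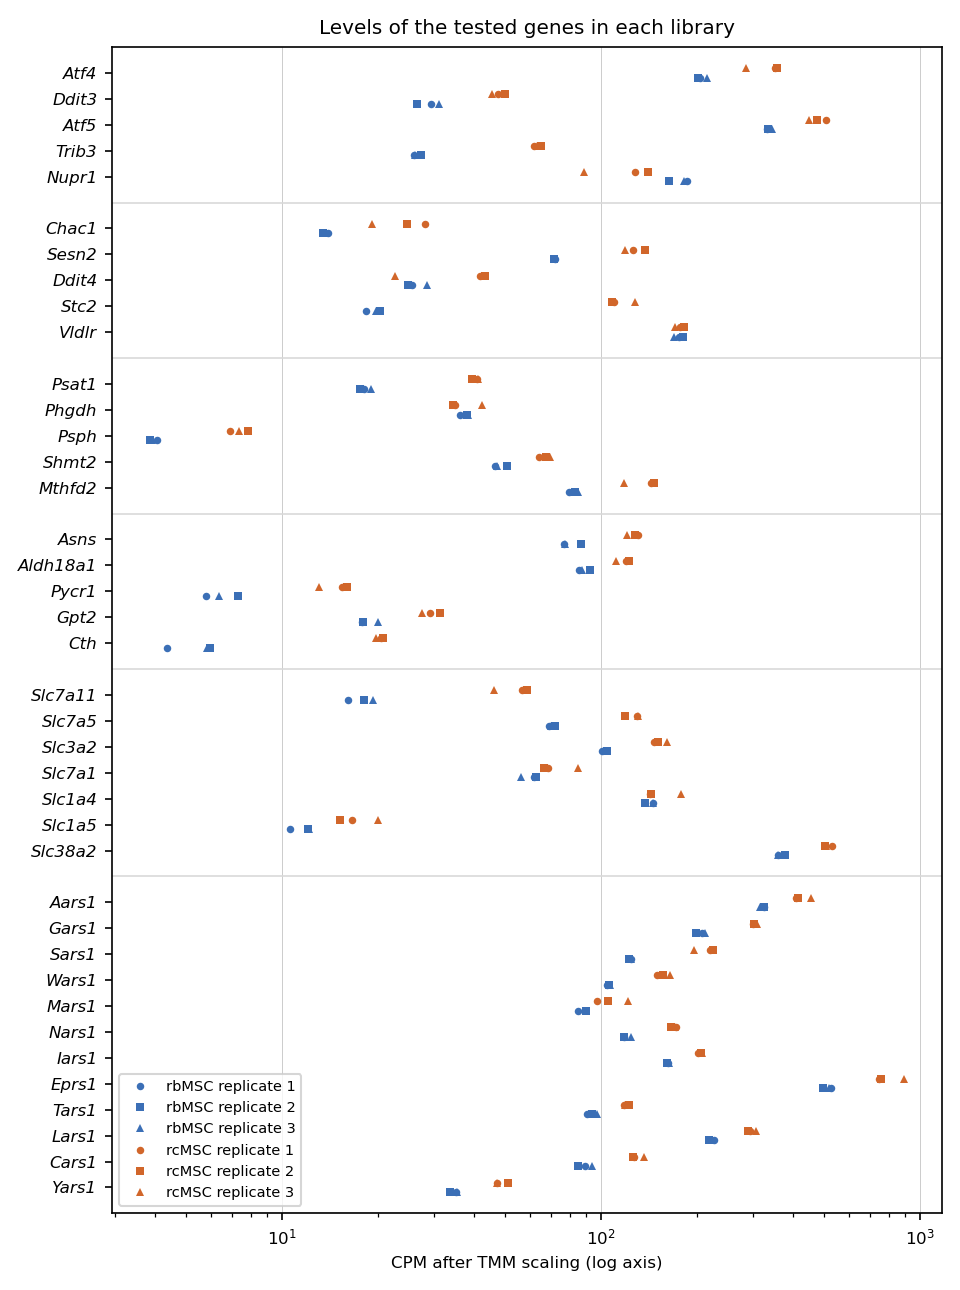
Level of each tested gene in each library, in CPM after TMM scaling on a log axis, with blue for rbMSC and orange for rcMSC and 1 symbol per replicate. Grey lines part the genes by role, from regulators at the top to tRNA synthetases at the bottom, and the orange symbols lie to the right of the blue ones in 34 of 39 genes.

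Without rcMSC replicate 3, 35 genes were higher and 1 lower, where 29.9% and 30.2% of all genes were, and the median was 0.55 (0.004 over all genes). The added gene was Ddit4. That library lay above both other rcMSC libraries in 17 of the 39 genes, below both in 16 and between them in 6. The median log2 ratio to the rbMSC mean was 0.53, 0.56 and 0.52 in rcMSC replicates 1 to 3, so that the library did not stand apart in the level of the whole list. It did by role, in opposite directions. In rcMSC replicates 1 to 3, the regulators summed to 1095, 1090 and 931 CPM and the cytosolic tRNA synthetases to 2878, 2922 and 3128 CPM.

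**Figure D2:**
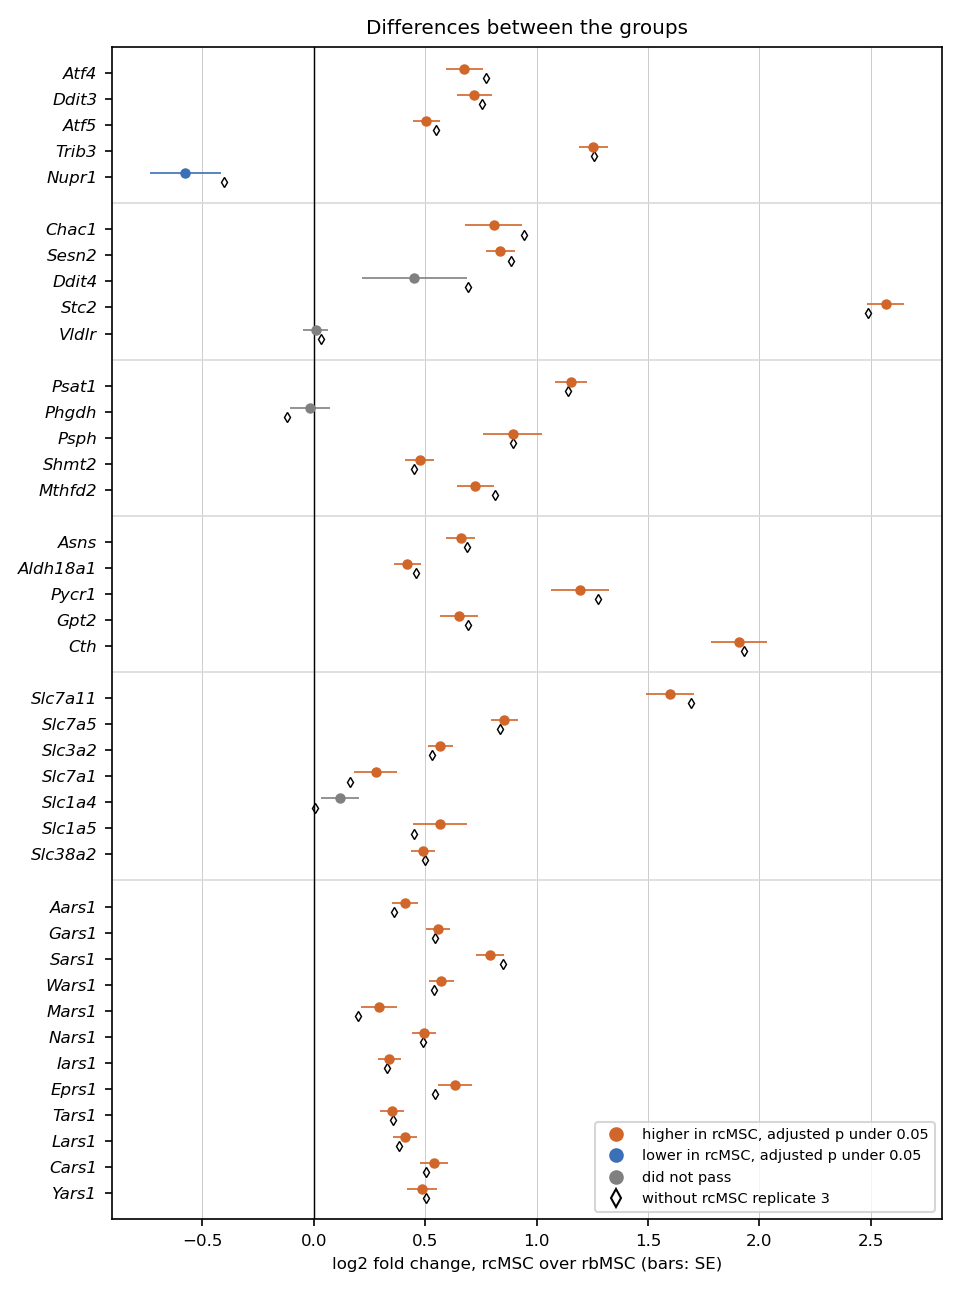
Log2 fold change of rcMSC over rbMSC for each tested gene (filled circle, bar for SE, orange for higher, blue for lower, grey for not past the threshold) and its value without rcMSC replicate 3 (open diamond). Stc2 at 2.57, Cth at 1.91 and Slc7a11 at 1.60 stand farthest to the right, and Nupr1 at -0.58 is the gene called lower.

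Near their starts, several of these genes hold the letters of the composite element that ATF4 is known to bind together with a C/EBP partner. This sequence, TGATGCAA, was searched on both strands in RefSeq windows (build GRCr8) from 250 bases before to 50 bases after each gene's start. It was found in 266 of 33469 windows (0.795%). A window was at hand for 38 of the 41 genes (by symbol, Cebpg included), and 11 of the 38 held the element: Aars1, Cars1, Chac1, Iars1, Mars1, Nars1, Nupr1, Pycr1, Slc1a4, Tars1 and Yars1. With any base in the sixth place (TGATGNAA, 3.98% of all windows, and including every TGATGCAA), Trib3 and Slc7a1 were added. A match is a description of these letters and not a site of binding. The genes were listed for the ATF4 pathway, so a share above that of all windows may follow from that choice. Stretches before the annotated start are shown for 8 of the 11 to let the element be compared across enzymes, transporters and regulators, with the element in capitals. On the strand of the gene it reads TGATGCAA in Pycr1 and TTGCATCA, its reverse complement, in the other 7 shown. Among the 3 not shown, it reads TGATGCAA in Nars1 and Yars1 and TTGCATCA in Cars1.
Chac1: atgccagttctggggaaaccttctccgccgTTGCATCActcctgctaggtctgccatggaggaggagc
Pycr1: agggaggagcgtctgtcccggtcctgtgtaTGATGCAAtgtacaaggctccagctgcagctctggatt
Aars1: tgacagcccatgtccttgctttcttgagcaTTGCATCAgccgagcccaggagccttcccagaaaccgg
Tars1: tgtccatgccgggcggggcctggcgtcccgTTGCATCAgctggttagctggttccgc
Iars1: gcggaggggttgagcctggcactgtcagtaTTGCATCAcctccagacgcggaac
Mars1: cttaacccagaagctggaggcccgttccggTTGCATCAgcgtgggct
Slc1a4: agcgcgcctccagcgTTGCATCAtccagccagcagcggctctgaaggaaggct
Nupr1: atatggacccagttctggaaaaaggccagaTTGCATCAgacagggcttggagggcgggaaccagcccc
In GRCr8 these stretches lie at chr3:126795934-126796001 (+ strand), chr10:106420906-106420973 (- strand), chr19:55908340-55908407 (+ strand), chr2:62114803-62114859 (- strand), chr17:15193653-15193706 (- strand), chr7:65023754-65023800 (- strand), chr14:98761760-98761812 (- strand) and chr1:190645919-190645986 (- strand). The element began at -167 in Chac1, -131 in Pycr1 and -112 in Aars1, counted from the start. In Tars1, Iars1 and Mars1 it began at -27, -24 and -17, closer to the start than in Nupr1 (-55) and Slc1a4 (-235).

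Genes with and without the element were both mostly higher. Of the 11 with it, 9 were higher in rcMSC, 1 was lower (Nupr1) and 1 did not pass (Slc1a4), with a median log2 fold change of 0.41. Of 25 tested genes whose window lacked it, 22 were higher and 0 lower, with a median of 0.66. The 3 tested genes with no window at hand were all higher, with a median of 0.56. Over all genes tested, 22.6% were higher and 23.2% lower. The element stood in 7 of 11 synthetase windows and in 0 of 5 windows of the serine and one-carbon enzymes. No match says only that these letters are not in this window.

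**Figure D3:**
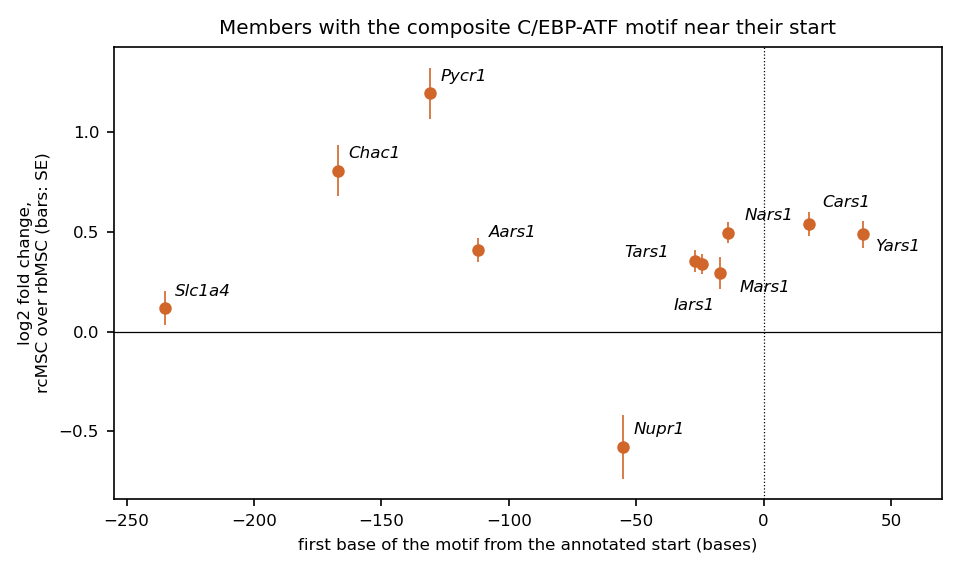
Log2 fold change (with SE) of the 11 genes that hold TGATGCAA against the place of its first base relative to the annotated start, in bases. The 7 synthetases lie between 0.29 and 0.54, Pycr1 is highest at 1.19, and Nupr1 lies below 0 at -0.58.

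The regulators include Atf4 itself (ENSRNOG00000017801, chromosome 7, 111804183 to 111806446 in mRatBN7.2, the build of all gene positions here). Its level was 205, 202 and 215 CPM in rbMSC replicates 1 to 3 and 351, 358 and 286 CPM in rcMSC. Every rcMSC library was above every rbMSC library, and replicate 3 was the lowest of the 3. The difference was 1.60-fold (log2 fold change 0.68 ± 0.08 SE, adjusted p = 0.00012 by edgeR), and the log2 value was 0.77 without rcMSC replicate 3. Ddit3 (ENSRNOG00000006789, chromosome 7, 63116380 to 63121201) encodes CHOP, a factor that ATF4 induces and that pairs with it on target genes. It had 29.4, 26.5 and 31.1 CPM in rbMSC and 47.7, 50.2 and 45.5 CPM in rcMSC, with no overlap (log2 fold change 0.72 ± 0.08 SE, adjusted p = 4.89e-05 by edgeR). Trib3 (ENSRNOG00000007319, chromosome 3, 140809043 to 140814497), a pseudokinase that ATF4 and CHOP induce and that restrains them, had 25.97, 27.4 and 26.1 CPM in rbMSC and 61.6, 64.98 and 62.9 CPM in rcMSC. The libraries of each group lay close together, and the difference was 2.38-fold (log2 fold change 1.25 ± 0.07 SE, adjusted p = 1.87e-07 by edgeR).

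Atf5, a relative of Atf4 with a role in mitochondrial stress, had 332, 333 and 344 CPM in rbMSC and 507, 477 and 449 CPM in rcMSC, with no overlap (log2 fold change 0.51 ± 0.06 SE, adjusted p = 8.09e-05 by edgeR). Of its exon bases, 93.5% also belong to Nup62 and 90.5% to Il4i1 on the opposite strand, and whether the counting used strand is not given. Neither of those genes passed the threshold (Nup62 at -0.10 and Il4i1 at 0.21, edgeR adjusted p = 0.398 and 0.168). Over all libraries, Atf5 had 61604 counts, Nup62 4955 and Il4i1 1654. Ddit3 and Mars1 share 60 exon bases, 6.95% of those of Ddit3 and 2.1% of those of Mars1. Psph shares 13.5% of its exon bases with Cct6a, itself at 0.23 (edgeR adjusted p = 0.00954). In all, 7 of the 40 genes share exon bases with another gene, always on the opposite strand. Whether reads from shared stretches can be told apart depends on the strand setting.

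Nupr1 (ENSRNOG00000050922, chromosome 1, 181212858 to 181215530), a small chromatin protein that ATF4 is known to induce under stress, went the other way. It had 186, 163 and 182 CPM in rbMSC and 128, 140.3 and 88.2 CPM in rcMSC, so that each rcMSC library was below each rbMSC library and replicate 3 was lowest (log2 fold change -0.58 ± 0.16 SE, adjusted p = 0.0208 by edgeR). The log2 value was -0.40 without that library (adjusted p = 7.21e-10). The call was lost without rbMSC replicate 1 or 3 (adjusted p = 0.056 and 0.0503) and without the low-count filter (0.0871). It shares 38.3% of its exon bases with an unnamed gene on the opposite strand that had 29 counts over all libraries, against 21867 for Nupr1.

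Among the stress and growth outputs, Stc2 (ENSRNOG00000020729, chromosome 10, 16250853 to 16262973) differed most of the 39. It encodes stanniocalcin 2, a secreted glycoprotein that is induced by ATF4 and restrains calcium entry. Its level was 18.3, 20.2 and 19.8 CPM in rbMSC and 110.2, 108 and 128 CPM in rcMSC. All rcMSC libraries exceeded 100 CPM and all rbMSC libraries stayed near 20, a 5.92-fold difference (log2 fold change 2.57 ± 0.08 SE, adjusted p = 6.07e-09 by edgeR). Sesn2 (ENSRNOG00000042785, chromosome 5, 144701530 to 144721260), a sensor of leucine that holds back mTORC1, had 71.6, 71.2 and 71.5 CPM in rbMSC and 126, 138 and 119 CPM in rcMSC, without overlap (log2 fold change 0.84 ± 0.06 SE, adjusted p = 3.46e-06 by edgeR). Chac1, which breaks down glutathione, had 13.9, 13.5 and 13.7 CPM in rbMSC and 28.04, 24.7 and 19.2 CPM in rcMSC. Replicate 3 was the lowest rcMSC library and still above every rbMSC library (log2 fold change 0.81 ± 0.13 SE, adjusted p = 0.000675 by edgeR).

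Ddit4 (REDD1), another inhibitor of mTORC1, is where rcMSC replicate 3 decided the call. It had 25.5, 24.9 and 28.5 CPM in rbMSC and 41.7, 43.5 and 22.7 CPM in rcMSC, and replicate 3 lay below all rbMSC libraries while replicates 1 and 2 lay above them. The log2 fold change was 0.45 (± 0.23 SE, adjusted p = 0.16 by edgeR) with all libraries and 0.69 (adjusted p = 1.8e-12) without that one. Vldlr, a lipoprotein receptor that ATF4 can induce, had 175, 180.3 and 170.0 CPM in rbMSC and 176, 182 and 171 CPM in rcMSC. The groups overlapped, with a log2 fold change of 0.01 (± 0.06 SE, adjusted p = 0.902 by edgeR).

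Serine is made from a glycolytic intermediate by 3 enzymes in turn, and they did not move as a block. Phgdh, which opens the path, had 36.3, 38.1 and 38.3 CPM in rbMSC and 34.8, 34.4 and 42.3 CPM in rcMSC. Replicates 1 and 2 of rcMSC were below all rbMSC libraries and replicate 3 was above them, with a log2 fold change of -0.02 (± 0.09 SE, adjusted p = 0.887 by edgeR), or -0.12 (0.12) without replicate 3. Psat1 (ENSRNOG00000013971, chromosome 1, 213196709 to 213218682), the transaminase that follows, had 18.1, 17.5 and 18.97 CPM in rbMSC and 40.9, 39.5 and 41.1 CPM in rcMSC. Those groups were well apart, a 2.23-fold difference (log2 fold change 1.16 ± 0.07 SE, adjusted p = 7.46e-07 by edgeR). Psph, which releases serine, had 4.07, 3.85 and 3.92 CPM in rbMSC and 6.88, 7.80 and 7.32 CPM in rcMSC (log2 fold change 0.89 ± 0.13 SE, adjusted p = 0.000363 by edgeR).

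Mitochondria split serine into glycine and a methylene group carried by folate, and both listed enzymes of that route, Shmt2 and Mthfd2, were higher in rcMSC. Shmt2, which makes the split, had a log2 fold change of 0.47 (adjusted p = 0.000211 by edgeR). Mthfd2, which oxidises the folate product, had 79.3, 83.2 and 84.8 CPM in rbMSC and 144, 146 and 118 CPM in rcMSC, with no overlap (log2 fold change 0.72 ± 0.08 SE, adjusted p = 5.75e-05 by edgeR). Of 17 other genes of one-carbon and glycine metabolism, 5 were higher, 3 lower and 9 did not pass, which is near the 22.6% and 23.2% of all genes. Leaving out rcMSC replicate 3 gave 6 higher and 5 lower, where 29.9% and 30.2% of all genes were. Mthfd2l, the other mitochondrial enzyme for the step of Mthfd2, was among those that did not pass, at -0.24 (adjusted p = 0.475 by edgeR). Aldh1l2, the mitochondrial enzyme that releases the carbon unit as carbon dioxide, had 115, 112 and 111 CPM in rbMSC and 223, 218 and 198 CPM in rcMSC (log2 fold change 0.92 ± 0.06 SE, adjusted p = 1.1e-06 by edgeR). The cytosolic counterpart of Shmt2, Shmt1, was lower, at -0.81 (adjusted p = 0.000261 by edgeR). Sfxn1, which carries serine into mitochondria, and Slc25a32, which carries folate there, were higher by 0.67 and 0.67 (edgeR adjusted p = 0.000151 and 0.000869). Sfxn3, a relative of Sfxn1, did not pass, at -0.32 (adjusted p = 0.0545 by edgeR). Without rcMSC replicate 3, Sfxn3 was called lower at -0.48 (adjusted p = 1.17e-09 by edgeR). Mthfd2l, Shmt1, Sfxn1, Sfxn3 and Slc25a32 were named after their values were seen.

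Enzymes that make other amino acids were higher in each of the 5 tested cases, where 22.6% of all genes were higher. Asns (ENSRNOG00000007546, chromosome 4, 35785237 to 35803423), asparagine synthetase and a classical ATF4 target, had 76.6, 86.7 and 77.2 CPM in rbMSC and 131, 128 and 121 CPM in rcMSC, with no overlap (log2 fold change 0.66 ± 0.07 SE, adjusted p = 2.44e-05 by edgeR). Proline is made by Aldh18a1 and Pycr1 in turn. Pycr1 (ENSRNOG00000036682, chromosome 10, 105917680 to 105922549) had 5.80, 7.31 and 6.34 CPM in rbMSC and 15.5, 16.02 and 13.03 CPM in rcMSC (log2 fold change 1.19 ± 0.13 SE, adjusted p = 4.18e-05 by edgeR), and Aldh18a1 had a smaller difference of 0.42 (adjusted p = 0.000303 by edgeR). Gpt2, the mitochondrial alanine transaminase, was at 0.65 (adjusted p = 0.000161 by edgeR). Cth (ENSRNOG00000010658, chromosome 2, 246975894 to 247002234), which releases cysteine from cystathionine, had 4.35, 5.97 and 5.82 CPM in rbMSC and 20.5, 20.7 and 19.7 CPM in rcMSC. Each rcMSC library was over 3 times each rbMSC library, with a 3.76-fold difference between groups (log2 fold change 1.91 ± 0.13 SE, adjusted p = 1.07e-06 by edgeR).

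In these enzymes, the log2 fold changes ran from 0.42 for Aldh18a1 to 1.91 for Cth, with SE values of 0.06 and 0.13. Among 15 other genes of glutamine, glutamate, proline and arginine metabolism tested, 5 were higher, 4 lower and 6 did not pass, against 22.6% and 23.2% of all genes. Without rcMSC replicate 3, 5 were higher and 5 lower, against 29.9% and 30.2% of all genes. In this list, 3 were higher without rbMSC replicate 1 or 3 or rcMSC replicate 2. Over all genes, 2542 to 2671 were higher in those runs, against 3351 with all libraries. Arg2, the mitochondrial arginase, had 14 counts over the rbMSC libraries and 251 over the rcMSC libraries (log2 fold change 3.93 ± 0.62 SE, adjusted p = 0.000881 by edgeR), and its cytosolic relative Arg1 was lower (log2 fold change -1.43 ± 0.24 SE, adjusted p = 0.000827 by edgeR). Of 12 tested methionine, cysteine and glutathione genes, 4 were higher, 3 lower and 5 did not pass, against 22.6% and 23.2% of all genes. Without rcMSC replicate 3, 5 were higher and 3 lower, against 29.9% and 30.2% of all genes. The count of lower genes was 1 without rbMSC replicate 1, and 2 when any other library but rcMSC replicate 3 was left out. Over all genes, 2794 to 2913 were lower in those runs, against 3445 with all libraries. Gclc, the catalytic subunit of the enzyme that starts glutathione synthesis, had 56.5, 60.96 and 57.7 CPM in rbMSC and 135, 135 and 119 CPM in rcMSC (log2 fold change 1.15 ± 0.07 SE, adjusted p = 5.41e-07 by edgeR). Cdo1, which oxidises cysteine to a sulfinate, was lower (log2 fold change -1.25 ± 0.18 SE, adjusted p = 0.000366 by edgeR).

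Of the 7 listed transporters, 6 were higher in rcMSC, where 22.6% of all genes were higher. Slc7a11 (ENSRNOG00000010210, chromosome 2, 133963107 to 134517536) encodes xCT, which brings cystine into the cell in exchange for glutamate. It had 16.1, 18.04 and 19.2 CPM in rbMSC and 56.8, 58.7 and 46.3 CPM in rcMSC. The rcMSC libraries were all above 46 CPM and the rbMSC libraries all below 20, a 3.03-fold difference (log2 fold change 1.60 ± 0.11 SE, adjusted p = 1.23e-06 by edgeR). Slc7a5 (ENSRNOG00000018824, chromosome 19, 49935220 to 49963823) encodes LAT1, a carrier of leucine and other large neutral amino acids, and had 68.8, 71.7 and 69.5 CPM in rbMSC and 130.1, 119 and 131 CPM in rcMSC (log2 fold change 0.86 ± 0.06 SE, adjusted p = 1.6e-06 by edgeR). Slc3a2, the heavy chain that both carriers need to reach the membrane, had 101, 105 and 104 CPM in rbMSC and 147, 152 and 161 CPM in rcMSC (log2 fold change 0.57 ± 0.06 SE, adjusted p = 2.31e-05 by edgeR). Per kilobase of exon, the level of Slc3a2 was 52.2 CPM in rbMSC and 77.4 in rcMSC, above Slc7a5 (20.2 and 36.6) and Slc7a11 (3.95 and 11.96) in both groups.

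The carriers of small neutral amino acids were less even. Slc38a2 (SNAT2), a sodium-coupled carrier that rises when amino acids are short, was the most abundant transporter of the 7 per kilobase, at 79.3 CPM in rbMSC and 111 in rcMSC, and its log2 fold change was 0.49 (adjusted p = 5.15e-05 by edgeR). Slc1a5 (ASCT2), a glutamine carrier, was at 0.57 (adjusted p = 0.0034 by edgeR). Its relative Slc1a4 (ASCT1) had 145, 137 and 146 CPM in rbMSC and 143, 144 and 178 CPM in rcMSC. Only replicate 3 of rcMSC was above the rbMSC range, and the log2 fold change was 0.12 (± 0.09 SE, adjusted p = 0.283 by edgeR), or 0.01 (0.902) without it. For Slc7a1 (CAT1), a carrier of arginine and lysine, replicate 3 was also highest, with 61.9, 62.5 and 56.2 CPM in rbMSC and 68.4, 66.2 and 84.5 CPM in rcMSC. Its log2 fold change of 0.28 (± 0.10 SE, adjusted p = 0.0349 by edgeR) was 0.16 (0.0105) without that library. It lost its call without rbMSC replicate 1, 2 or 3 (adjusted p = 0.0813, 0.0731 and 0.14) and with the replicate block (0.0611).

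Among 20 other amino acid transporters tested, 4 were higher, 8 lower and 8 did not pass, with a median of -0.11. The share of higher genes was near the 22.6% of all genes, and 23.2% of all genes were lower. The counts were 4 higher and 10 lower without rcMSC replicate 3, where 29.9% and 30.2% of all genes were. In this list, 5 were lower without rbMSC replicate 1 or 3. Over all genes, 2794 and 2843 were lower in those runs, against 3445 with all libraries. The 4 higher ones were Slc38a4, Slc1a3, Slc6a9 and Slc38a1, and Slc38a1 lost its call without rbMSC replicate 1 or 2 or rcMSC replicate 2 (adjusted p of at most 0.0791). Slc1a3, a glutamate carrier, had 20.5, 17.7 and 15.6 CPM in rbMSC and 48.8, 44.03 and 39.9 CPM in rcMSC (log2 fold change 1.31 ± 0.11 SE, adjusted p = 8.35e-06 by edgeR). Slc38a4, a neutral amino acid carrier, had 21 counts over the rbMSC libraries and 303 over the rcMSC libraries (log2 fold change 3.65 ± 0.46 SE, adjusted p = 0.000163 by edgeR). The 3 members with the highest counts that were called lower, chosen after their values were seen, were the taurine carrier Slc6a6 at -0.50, Slc43a2 at -0.69 and Slc7a2 at -0.47 (edgeR adjusted p = 3.33e-05, 0.000147 and 0.00105).

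All 12 of the listed cytosolic tRNA synthetases were higher in rcMSC, without overlap between the groups in any of them. Of all genes tested, 22.6% were higher, and in 28.3% all rcMSC libraries lay above all rbMSC libraries. The log2 fold changes of the 12 ran from 0.29 (Mars1) to 0.79 (Sars1), with a median of 0.49. Summed over the 12 genes, the level was 2093, 2050 and 2104 CPM in rbMSC and 2878, 2922 and 3128 CPM in rcMSC. Sars1 (ENSRNOG00000020255, chromosome 2, 196065430 to 196081277), which loads serine, had 124, 122 and 124 CPM in rbMSC and 220.3, 225 and 196 CPM in rcMSC (log2 fold change 0.79 ± 0.06 SE, adjusted p = 4.61e-06 by edgeR). Eprs1 (ENSRNOG00000002393, chromosome 13, 96901575 to 96971966), which loads both glutamate and proline, was the most abundant of the 12 per kilobase, at 103 CPM in rbMSC and 159.5 in rcMSC. Its values were 526, 498 and 518 CPM in rbMSC and 744, 755 and 894 CPM in rcMSC, and replicate 3 was highest (log2 fold change 0.63 ± 0.07 SE, adjusted p = 8.13e-05 by edgeR). Gars1, for glycine, had 208, 198 and 213 CPM in rbMSC and 299, 303 and 309 CPM in rcMSC (log2 fold change 0.56 ± 0.05 SE, adjusted p = 1.88e-05 by edgeR).

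The remaining synthetases of the list lay close to each other. Wars1 (tryptophan), Cars1 (cysteine), Nars1 (asparagine) and Yars1 (tyrosine) were at 0.57, 0.54, 0.50 and 0.49. Lars1 (leucine), Aars1 (alanine), Tars1 (threonine) and Iars1 (isoleucine) were at 0.41, 0.41, 0.35 and 0.34. Their edgeR adjusted p ran from 2.07e-05 (Wars1) to 0.000507 (Tars1). Mars1, for methionine, had 84.6, 89.9 and 89.95 CPM in rbMSC and 97.2, 105 and 122 CPM in rcMSC, with replicate 3 highest. Its log2 fold change was 0.20 without that library, and its call was lost without rbMSC replicate 1 (adjusted p = 0.0724).

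Synthetases outside the list were also looked at, together with genes of the scaffold that holds synthetases. Both lists were chosen with earlier results of these data known, so a contrast between them may be shaped by that choice. Of 11 other cytosolic synthetase and scaffold genes, 6 were higher, 0 lower and 5 did not pass, with a median of 0.18, against 22.6% and 23.2% of all genes. Without rcMSC replicate 3, 7 were higher and 1 lower, against 29.9% and 30.2% of all genes. Without rbMSC replicate 1, 2 were higher and 0 lower. Over all genes, 2542 were then higher and 2794 lower, against 3351 and 3445 with all libraries. Eef1e1, a scaffold protein of the multi-synthetase complex, had a log2 fold change of 0.71 (adjusted p = 0.00537 by edgeR) and Farsb, a subunit for phenylalanine, 0.40 (adjusted p = 0.000914 by edgeR). Kars1 (lysine) at 0.11 (adjusted p = 0.161 by edgeR), Rars1 (arginine) at 0.13 (adjusted p = 0.0885 by edgeR), Vars1 (valine) at -0.04 (adjusted p = 0.77 by edgeR) and Farsa at 0.08 (adjusted p = 0.466 by edgeR) did not pass. When rcMSC replicate 3 was left out, Vars1 was lower at -0.19 (adjusted p = 0.00071) and Rars1 higher at 0.15 (0.00967). These 4 were named after their values were seen. Of 16 mitochondrial synthetases tested, 1 was higher and 0 lower, with a median of 0.06, against 22.6% and 23.2% of all genes. That one was Hars2 (log2 fold change 0.28 ± 0.07 SE, adjusted p = 0.0074 by edgeR). Without rcMSC replicate 3, Iars2 was also called, lower at -0.18 (adjusted p = 0.00578), against -0.12 (0.212) with all libraries. The element TGATGCAA stood in 0 of 9 windows of the other cytosolic genes and in 0 of 16 windows of the mitochondrial ones. The listed synthetases came from a list built around ATF4, so a contrast in the element may also follow from how the lists were made. Whether the listed and unlisted synthetases differ as sets was not tested.

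**Figure D4:**
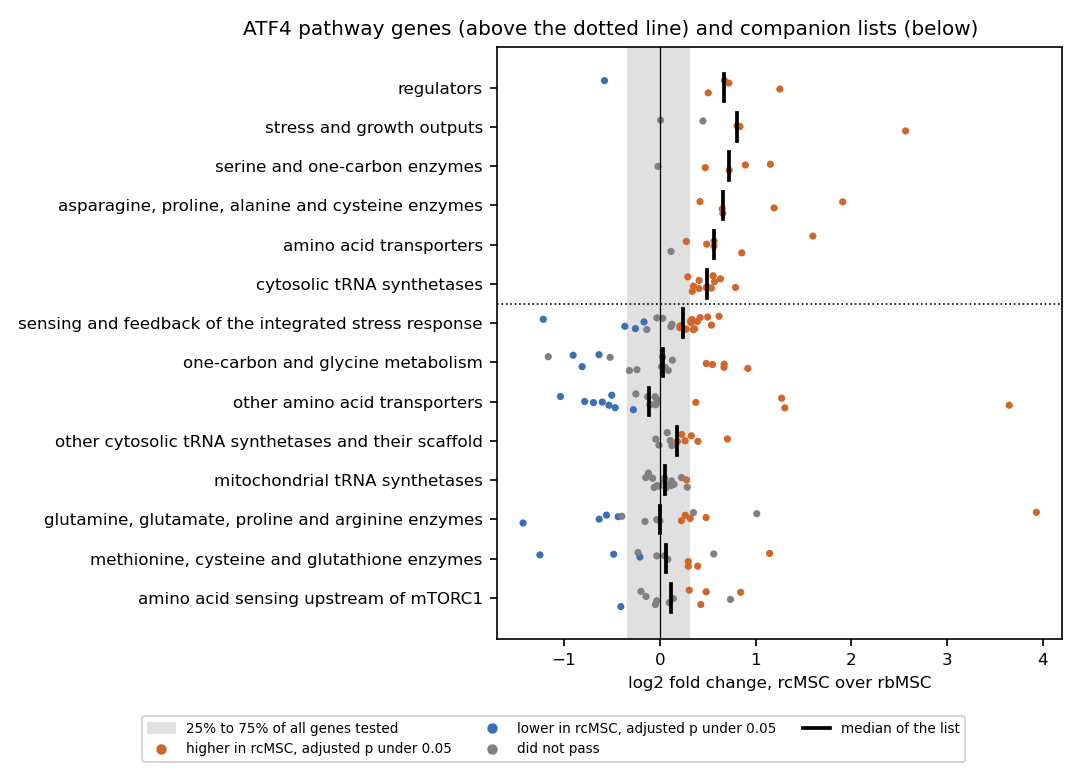
Log2 fold change of rcMSC over rbMSC for every tested gene of each role (above the dotted line) and of each companion list (below), with black bars for medians and a grey band for the middle 50% of all genes tested. The medians above the line lie between 0.49 and 0.81, and those below lie between -0.11 and 0.24.

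Of 22 genes that sense stress or feed back on ATF4, 13 were higher, 4 lower and 5 did not pass, with a median of 0.24, where 22.6% of all genes were higher and 23.2% lower. That count changed when a library was left out. It was 14 higher and 5 lower without rcMSC replicate 3, but 6 and 2 without rbMSC replicate 1 or 3, and 9 to 10 and 2 without any other library. The count over all genes changed too. Of all genes, 3351 were higher with all libraries, 4512 without rcMSC replicate 3 and 2542 to 2698 without any other library. Of the 4 kinases that phosphorylate eIF2, Eif2ak2 (PKR) and Eif2ak3 (PERK) were higher, at 0.36 (adjusted p = 0.00297 by edgeR) and 0.21 (adjusted p = 0.0144 by edgeR). Eif2ak4 (GCN2), which senses uncharged tRNA, was lower at -0.36 (adjusted p = 0.00755 by edgeR), as was its partner Gcn1 at -0.25 (adjusted p = 0.0399 by edgeR). Eif2ak1 (HRI) did not pass, at 0.03 (adjusted p = 0.704 by edgeR). The call of Eif2ak3 was lost without rbMSC replicate 1 or 3 (adjusted p of at most 0.0766), and that of Gcn1 without any library but rcMSC replicate 3 (at most 0.143). Each of the 5 subunits of eIF2B, the exchange factor that phosphorylated eIF2 blocks, was higher, led by Eif2b2 (log2 fold change 0.62 ± 0.08 SE, adjusted p = 0.000176 by edgeR). Of these, Eif2b2 and Eif2b5 kept their calls whichever library was left out. Eif2b1 lost its call without rbMSC replicate 1 or 3 or rcMSC replicate 2 (adjusted p of at most 0.11), and Eif2b3 without any 1 of the rbMSC libraries (at most 0.0985). Eif2b4 lost its call without any library but rcMSC replicate 3 (at most 0.142). Ppp1r15a (GADD34), which directs removal of the phosphate and is itself induced, was higher by 0.50 (edgeR adjusted p = 0.000346). Atf3, another factor that ATF4 induces, had 10.3, 10.2 and 9.54 CPM in rbMSC and 5.46, 4.05 and 3.40 CPM in rcMSC and was lower (log2 fold change -1.22 ± 0.17 SE, adjusted p = 0.000228 by edgeR). Apart from Atf3 and Eif2b2, the genes in this paragraph were named after their values were seen.

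In the list of 12 tested genes of amino acid sensing upstream of mTORC1, 4 were higher, 1 lower and 7 did not pass, with a median of 0.12, against 22.6% and 23.2% of all genes. The counts became 6 higher and 2 lower without rcMSC replicate 3, where 29.9% and 30.2% of all genes were. With total counts as the only scaling, and without any 1 of the other 5 libraries, 2 were higher. Over all genes, 3062 were higher with that scaling and 2542 to 2698 without any 1 of those 5, against 3351 in the main fit. Lamtor1, which anchors the sensing complex to lysosomes, stood at 0.84 (± 0.13 SE, adjusted p = 0.000635 by edgeR). Nprl2, of a complex that restrains mTORC1, was at 0.48 (adjusted p = 0.0461 by edgeR) and lost its call in 8 alternatives (adjusted p = 0.0636 to 0.154). Sesn1 and Sesn3, the relatives of Sesn2, did not pass, at -0.20 and -0.14 (edgeR adjusted p = 0.115 and 0.0675), and both were named after their values were seen. Without rcMSC replicate 3, Sesn3 was called lower at -0.11 (0.0363).

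The levels themselves spanned a wide range. Per kilobase of exon, Atf5, Atf4 and Eprs1 were the most abundant of the 39 in rcMSC, at 275, 224 and 159.5 CPM, and Psph and Gpt2 among the least, at 4.83 and 4.59 CPM. In rbMSC, Nupr1 (147 CPM per kilobase) and Atf4 (140.3) were within the spread of the libraries of each other, and in rcMSC Nupr1 was lower (98.6 against 224). Summed over the 39 genes, the level was 4312, 4301 and 4361 CPM in rbMSC and 6153, 6182 and 6217 CPM in rcMSC. These sums differed by less than 2% within each group. By role, the mean of the summed level was 776 CPM in rbMSC and 1039 CPM in rcMSC for the regulators. For transporters it was 771 and 1092 CPM, and for the serine and one-carbon enzymes 190.2 and 288 CPM.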

How the data were processed

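Gene expression was measured by RNA sequencing in 3 rcMSC and 3 rbMSC libraries, grouped by their titles. The authors used paired reads of 150 nt, Trim Galore 0.6.7 and Trimmomatic 0.39 for trimming, STAR 2.7.9a for mapping to mRatBN7.2 and featureCounts 2.0.1 for counting, per the labels' protocols and the submitters' processing notes, which also list DESeq2 1.20.0. For the annotation release, the strand setting and reads with several places, the sources used here give nothing. The deposited table holds unnormalized counts for each gene, beside gene lengths. Genes were matched by symbol, and the naming of the 5 found under other symbols (Kars1 included) rests on older symbols or RefSeq synonyms.

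Counts were tested with edgeR 4.0.16 in R 4.3.3 (TMM scaling, filterByExpr defaults, robust quasi-likelihood F test, Benjamini-Hochberg over the 14836 genes kept), with an adjusted p under 0.05 as threshold. SE is the log2 fold change over the square root of F. Depth was 21340290 to 26928079 counts per library. The members and the companion lists were chosen with earlier results of these data known. Of each companion list, up to 2 called genes were named, those that changed most among genes whose mean log2 CPM reached 0, and any other is marked as named after its values were seen (1 gene that this rule names is not reported here). Alternatives (14) were other scalings and filters, DESeq2 1.42.0, limma 3.58.1 voom with sample weights, no robust dispersion, a block for the replicate number, and leaving out each library in turn. The edgeR step was also run on simulated counts with the same dispersion for all genes and no library apart from its group. Both differ from these data, so that run does not show how the test behaves with a library such as rcMSC replicate 3. No value column of the table was left unmapped.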

Additional observations from a re-analysis of the deposited data

How the results depend on the processing

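Of 546 pairs of a tested member and an alternative, 536 kept their call, 8 lost it and 2 gained it, and 35 of the 39 members kept theirs in every alternative run. The 4 exceptions were Nupr1, Slc7a1 and Mars1, which lost it, and Ddit4, which gained it with limma voom (adjusted p = 0.00222) and without rcMSC replicate 3. The count of higher members was 33 with the replicate block, 35 with limma voom and 32 to 35 without 1 library. The count of lower members was 0 with no low-count filter, where only Nupr1 was affected, and 0 to 1 without 1 library. The median over the members was 0.545 with limma voom and 0.545 to 0.595 without 1 library. Over all genes, 2542 to 4512 were higher and 2794 to 4558 lower without 1 library, and 4402 and 4387 with limma voom. The titles number the libraries 1 to 3 in both groups, but same-numbered libraries did not deviate together (correlations of -0.0275, 0.018 and -0.0518), so the numbers were not read as pairs, and none of the 3 rcMSC libraries correlated best with its own number. Apart from Slc7a1, the replicate block changed no member's call. With 3 libraries a group, genes of low level such as Psph rest on fewer counts, and the spread between libraries may be technical.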

Other observations

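Outside the listed genes, TGATGCAA was found in the promoter windows of 54 tested genes, of which 20 (37.0%) were higher and 14 (25.9%) lower in rcMSC. Of 9886 other tested genes with a window that lacked it, 22.5% were higher and 24.0% lower. The medians of the log2 fold change were 0.255 and 0.017. Seen by call, the element stood in 0.891% of windows of higher, 0.588% of lower and 0.376% of uncalled genes outside the list. No test of these shares was made, and genes are not independent.

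Among the higher genes with the element, chosen after their values were seen, were Eif2s2, the beta subunit of eIF2, and Herpud1, which acts in the removal of misfolded ER proteins. Eif2s2 had 90.8 ± 2.48 CPM in rbMSC and 134.7 ± 11.6 in rcMSC (SD, n = 3 each), which is 0.57 on the log2 scale (adjusted p = 0.0001053 by edgeR). Herpud1 had 61.9 ± 2.88 CPM and 86.5 ± 9.29 CPM, which is 0.48 on the log2 scale (adjusted p = 0.0009335 by edgeR). Serpinf1, which encodes the secreted factor PEDF, had 349.7 ± 11.5 and 848 ± 13.7 CPM, which is 1.28 on the log2 scale (adjusted p = 4.693e-08 by edgeR). Others went down, such as Arid5b, a chromatin factor, at -0.69 (edgeR adjusted p = 6.244e-06) and Nckap5 at -2.04 (edgeR adjusted p = 1.953e-05).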
